A study of Mus musculus with 4 samples.

Results

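The transcripts described here are 9 mouse non-coding RNAs whose introns carry small nucleolar RNAs (snoRNAs): Gas5, Snhg1, Snhg3, Snhg5, Snhg6, Snhg8, Snhg12, Zfas1 and Epb41l4aos. They were taken by gene name from a deposited table of 21738 genes, and each of the 9 names matched 1 gene. RNA was sequenced from immunoprecipitates of neurospheres, which are clusters of neural stem and precursor cells grown in suspension. The cells came from the ventricular-subventricular zone of wild-type CD1 mice at P7 or P8 and were grown for 7 days. One group of 2 libraries was made with an antibody against 4E-T, and the other 2 libraries with anti-IgG, the control for RNA that comes down without a specific target. Genotype, strain, age, culture time and the purified RNA fraction were the same in both groups, and the labels do not give the number of animals or cultures behind a library. The comparison asks whether the host transcripts stand higher or lower with 4E-T than with IgG, on values scaled by a size factor per library. These factors do not follow the total of reads, so a value is not a share of the RNA recovered. Input RNA was not analysed here, so a lower value with 4E-T is not a lower amount bound.

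snoRNAs guide chemical modification of ribosomal and other RNAs, and most mammalian snoRNAs are cut from the introns of a longer host transcript. Box C/D snoRNAs (named Snord) guide ribose methylation, and box H/ACA snoRNAs (named Snora) guide pseudouridylation. The spliced exons of the non-coding hosts reach the cytoplasm, where ribosomes engage their short reading frames and nonsense-mediated decay removes many of them, so several accumulate when translation is blocked. Several begin with a 5′ terminal oligopyrimidine (TOP) tract, a C followed by a run of C and T. Ribosomal protein mRNAs share this tract, and it links their translation to mTOR signalling. 4E-T is encoded by Eif4enif1, partners with eIF4E at the mRNA cap, and takes part in translational repression and in P-bodies, cytoplasmic granules that hold untranslated mRNA.

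The libraries held between 72769612 and 85828188 reads over the listed genes, recovered from the deposited values. All 10 neural stem cell markers examined were expressed. Their sum was 3490 and 3630 FPKM for IgG, against 5410 and 4100 FPKM for 4E-T. FPKM is a read level scaled for gene length and, here, for a size factor of each library. Of these markers 5 were called higher, beside 34.3% of all tested genes. Summed markers of neurons (10.4 to 12.6 FPKM) and ependymal cells (10.2 to 12.4 FPKM) were low. Those of oligodendrocytes were at 4.23 and 3.89 FPKM for IgG, against 2.28 and 2.61 FPKM for 4E-T, and the 1 marker tested was called lower. The part of these markers in the results on the hosts was not tested. Markers of microglia and blood (0.295 to 0.719 FPKM summed) and of endothelial and mural cells (1.09 to 1.88 FPKM summed) were close to absent in every library. Eif4enif1 mRNA stood at 31.3 and 29.7 FPKM for IgG, against 32.5 and 35.3 FPKM for 4E-T (limma adjusted p = 0.39). The antibody captures the protein, so the level of this mRNA does not check the labels.

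The sequence around the annotated start is shown for the 7 host genes whose starts could be printed, because the start carries the TOP tract that this family is known for. Each window runs from 40 bases before the first annotated base to 20 bases from it onward, 5′ to 3′ on the transcribed strand, from RefSeq on GRCm38.p6. Capitals mark a C followed by at least 4 bases that are each C or T, where that C lies within 10 bases of the annotated start, and TATAAA or TATATA from 40 to 15 bases before it. Both were searched on the transcribed strand only. Gas5 has a pair of annotated starts.
Gas5, first start, chr1:161034561-161034620 (+): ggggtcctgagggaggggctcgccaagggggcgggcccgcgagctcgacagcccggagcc
Gas5, second start, chr1:161035126-161035185 (+): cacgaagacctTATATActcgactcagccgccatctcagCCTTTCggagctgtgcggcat
Snhg1, chr19:8723447-8723506 (+): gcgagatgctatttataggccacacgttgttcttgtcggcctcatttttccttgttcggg
Snhg3, chr4:132353667-132353726 (-): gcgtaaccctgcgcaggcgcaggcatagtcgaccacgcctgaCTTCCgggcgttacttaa
Snhg5, chr9:88522878-88522937 (-): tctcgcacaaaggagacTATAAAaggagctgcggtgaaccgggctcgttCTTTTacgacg
Snhg8, chr3:123508317-123508376 (-): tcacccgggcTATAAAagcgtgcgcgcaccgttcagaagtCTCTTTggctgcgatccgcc
Snhg12, chr4:132308638-132308697 (+): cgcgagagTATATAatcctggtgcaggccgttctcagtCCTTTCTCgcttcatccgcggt
Zfas1, chr2:167062894-167062953 (+): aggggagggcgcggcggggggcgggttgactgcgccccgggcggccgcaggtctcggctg

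A C at the first annotated base followed by at least 4 bases of C or T was found at the second Gas5 start and at Snhg8, in 2 of the 8 windows. The same was true of 2.51% of all 32851 RefSeq promoters and of 19.7% of 66 promoters of cytosolic ribosomal protein genes. The Snhg12 run began 2 bases before the annotated start, that of Snhg3 at base 3 and that of Snhg5 at base 10. Within 10 bases of the start, 5 of the 8 windows held a run, against 29.7% of all promoters and 54.5% of those of ribosomal protein genes. TATAAA or TATATA stood in 4 of the 8 windows, those of the second Gas5 start, Snhg5, Snhg8 and Snhg12, against 2.73% of all promoters and 4.55% of the ribosomal protein promoters. These are matches to letters at annotated starts, which can lie some bases from the true ones.

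The host transcripts fell into a lower group and a group with no called difference. Of the 9, 4 were lower with 4E-T (Gas5, Snhg3, Snhg8 and Epb41l4aos) and 0 were higher, at a limma adjusted p under 0.05 over 12585 tested genes. Of all tested genes 15.2% were called lower and 34.3% higher. The median log2 difference of the 9 transcripts, 4E-T minus IgG on the scale of log2(FPKM + 1), was -0.28, and that of all tested genes was 0.16. All 9 passed the expression filter in every library. Where the groups of a host do not overlap, an exact two-sided permutation test of 2 against 2 libraries still gives a p of 0.333. How many of all tested genes separate in this way was not counted. A change in the share of cells that express a transcript and a change in its amount per cell cannot be told apart in these pooled cultures. Because the labels do not say that libraries came from separate cultures, every p-value reflects only how these 4 libraries scatter, and that scatter may be technical.

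**Figure D1:**
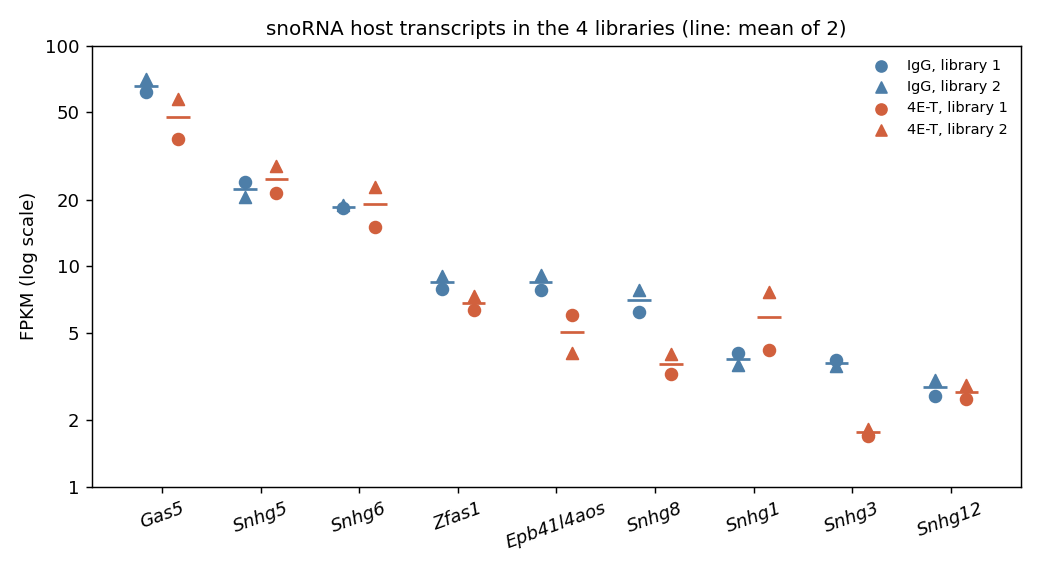
FPKM (log scale) of each of the 9 host transcripts in the 4 libraries, with circles for library 1, triangles for library 2, blue for IgG, orange for 4E-T and a line at each mean of 2. Gas5 lies between 38 and 70.5 FPKM and the others between 1.70 and 28.4 FPKM, and the orange points lie below the blue ones for Gas5, Zfas1, Epb41l4aos, Snhg8 and Snhg3.

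Gas5 was the most abundant of the hosts with both antibodies. FPKM is a level per length, so the order of the hosts depends on the exon lengths used. With IgG, Gas5 was followed by Snhg5 (20.7 to 24.1 FPKM) and Snhg6 (18.4 to 18.9 FPKM). Zfas1 (7.90 to 9.05 FPKM), Epb41l4aos (7.77 to 9.14 FPKM) and Snhg8 (6.23 to 7.79 FPKM) came next, each overlapping its neighbour in the order. Snhg1 (3.58 to 4.02 FPKM) and Snhg3 (3.54 to 3.74 FPKM) also overlapped each other, and Snhg12 was lowest at 2.57 to 3.06 FPKM. With 4E-T the first 4 ranks were held by the same transcripts in the same order of mean level. Snhg5 and Snhg6 now overlapped, as did Zfas1 and Snhg1 (4.15 to 7.62 FPKM), and Snhg3 was the lowest. The lengths behind these levels are those of all annotated exons merged, from 430 bp for Epb41l4aos to 2728 bp for Snhg1. With IgG, Snhg1 had 1004 and 864 reads against 306 and 348 for Epb41l4aos, which ranked above it on FPKM.

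Snhg8, a host of the H/ACA snoRNA Snora24 (ENSMUSG00000104960.1; chromosome 3, 123507552 to 123508336), was lower with 4E-T in both libraries. It had 6.23 and 7.79 FPKM with IgG and 3.24 and 3.99 FPKM with 4E-T. All 4E-T values were below all IgG values. The log2 difference was -0.79 ± 0.14 (SE, n = 2 per antibody), which is 1.73-fold lower on the scale of FPKM + 1 (limma adjusted p = 3.3e-05). On FPKM itself, the 4E-T mean was 0.516 of the IgG mean. The call was kept under all 12 alternative settings, in which the difference ran from -0.95 to -0.65.

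Snhg3, the U17 host gene (ENSMUSG00000085241.7; chromosome 4, 132351933 to 132353686), holds the H/ACA snoRNA genes Snora73a and Snora73b, which act in the processing of ribosomal RNA. It had 3.74 and 3.54 FPKM with IgG and 1.70 and 1.83 FPKM with 4E-T, and the groups did not overlap. Libraries of the same antibody lay close together. The log2 difference was -0.74 ± 0.13 (SE, n = 2 per antibody; limma adjusted p = 2.97e-05), a 1.68-fold decrease on the scale of FPKM + 1. On FPKM itself, Snhg3 with 4E-T averaged 0.486 of its IgG mean, below the 0.516 of Snhg8. Its reads were few, 199 and 182 with IgG against 74 and 75 with 4E-T. The call was kept in all 11 alternatives that tested it.

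Epb41l4aos (ENSMUSG00000087590.2; chromosome 18, 33794892 to 33795989) lies next to the protein-coding gene Epb41l4a, and its human counterpart hosts the H/ACA snoRNA SNORA13. It had 7.77 and 9.14 FPKM with IgG and 6 and 4.03 FPKM with 4E-T. Both 4E-T values were lower than both IgG values, and the 4E-T libraries differed from each other more than the IgG libraries did. The log2 difference was -0.67 ± 0.15 (SE, n = 2 per antibody; limma adjusted p = 0.000913), a 1.59-fold decrease on the scale of FPKM + 1. On FPKM itself, the 4E-T mean was 0.593 of the IgG mean. With 1 library left out, 1 antibody has a single library, and the fit then takes the spread from the pair of the other antibody and from the prior over all genes, so such p-values assume equal spread. Omitting the second IgG library ended the call (-0.56, limma adjusted p = 0.0621). The difference was -0.43 when the second 4E-T library was omitted and -0.91 when the first was.

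Gas5 (growth arrest specific 5; ENSMUSG00000053332.13; chromosome 1, 161034601 to 161038539), an RNA that builds up in cells whose growth or translation is arrested, was lower with 4E-T by a smaller margin. It had 61.5 and 70.5 FPKM with IgG and 38 and 57.4 FPKM with 4E-T. The groups did not overlap, but the higher 4E-T library came close to the lower IgG library. The log2 difference was -0.48 ± 0.17 (SE, n = 2 per antibody; limma adjusted p = 0.0248), a 1.40-fold decrease on the scale of FPKM + 1. This call rested on the libraries included. With the second 4E-T library alone the difference was -0.19 and not called (limma adjusted p = 0.391), and with the first alone it was -0.78. The spread in these fits comes from the IgG pair and the prior. The call also ended on omitting either IgG library (limma adjusted p = 0.0972 for the first and 0.261 for the second). It held in 6 of 12 alternatives, and Gas5 had between 7270 and 15945 reads per library.

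Zfas1 (ENSMUSG00000074578.13; chromosome 2, 167062934 to 167065862), an RNA antisense to the 5′ end of Znfx1 and a host of Snord12, had 7.90 and 9.05 FPKM with IgG and 6.32 and 7.31 FPKM with 4E-T. The groups did not overlap, and the log2 difference was -0.28 ± 0.14 (SE, n = 2 per antibody), short of the threshold (limma adjusted p = 0.0919). It passed with median ratio scaling (-0.44, limma adjusted p = 0.0158), with quantile normalisation (-0.45, limma adjusted p = 0.00979) and after a correction for exon length (-0.40, limma adjusted p = 0.0296).

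Snhg1 (ENSMUSG00000108414.1; chromosome 19, 8723487 to 8726326) is the host of Snord22 and of 7 further snoRNA genes. It was the only host whose 4E-T values both lay above its IgG values, with 4.02 and 3.58 FPKM with IgG and 4.15 and 7.62 FPKM with 4E-T. The first 4E-T library was at the level of the IgG libraries and the second was 1.84-fold above the first. The log2 difference of 0.48 ± 0.24 (SE, n = 2 per antibody) did not pass the threshold (limma adjusted p = 0.158). It was 0.85 with the second 4E-T library alone, which the fit called, and 0.10 with the first alone, which it did not. These are values of single 4E-T libraries, with the spread taken from the IgG pair and the prior. In the authors' deposited table, which used DESeq2, Snhg1 had a log2 fold change of 0.63 with an adjusted p of 0.0292. limma-voom on the recovered reads also called it (0.57, limma adjusted p = 0.0205).

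Snhg5, Snhg6 and Snhg12 had overlapping values with both antibodies. Snhg5 (ENSMUSG00000097195.9; chromosome 9, 88521052 to 88522897), the mouse U50 host gene, had 24.1 and 20.7 FPKM with IgG and 21.4 and 28.4 FPKM with 4E-T (log2 difference 0.13 ± 0.15, SE; limma adjusted p = 0.473). Snhg6 (ENSMUSG00000098234.7; chromosome 1, 9942025 to 9944118), host of Snord87, had 18.4 and 18.9 FPKM with IgG and 15.1 and 23.0 FPKM with 4E-T, so that the IgG values lay inside the 4E-T range (limma adjusted p = 0.985). The signs of both turned with median ratio scaling (-0.045 for Snhg5 and -0.17 for Snhg6) and with quantile normalisation (-0.06 and -0.19), and neither was called in any of 12 alternatives. Snhg12 (ENSMUSG00000086290.8; chromosome 4, 132308678 to 132311024), which holds 3 Snora genes and Snord99, had 2.57 and 3.06 FPKM with IgG and 2.49 and 2.89 FPKM with 4E-T (log2 difference -0.05 ± 0.13, SE; limma adjusted p = 0.789). For the called hosts, the authors' deposited table has the same directions, with adjusted p of 0.041 for Gas5, 0.00499 for Snhg3, 0.00041 for Snhg8 and 0.0235 for Epb41l4aos.

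**Figure D2:**
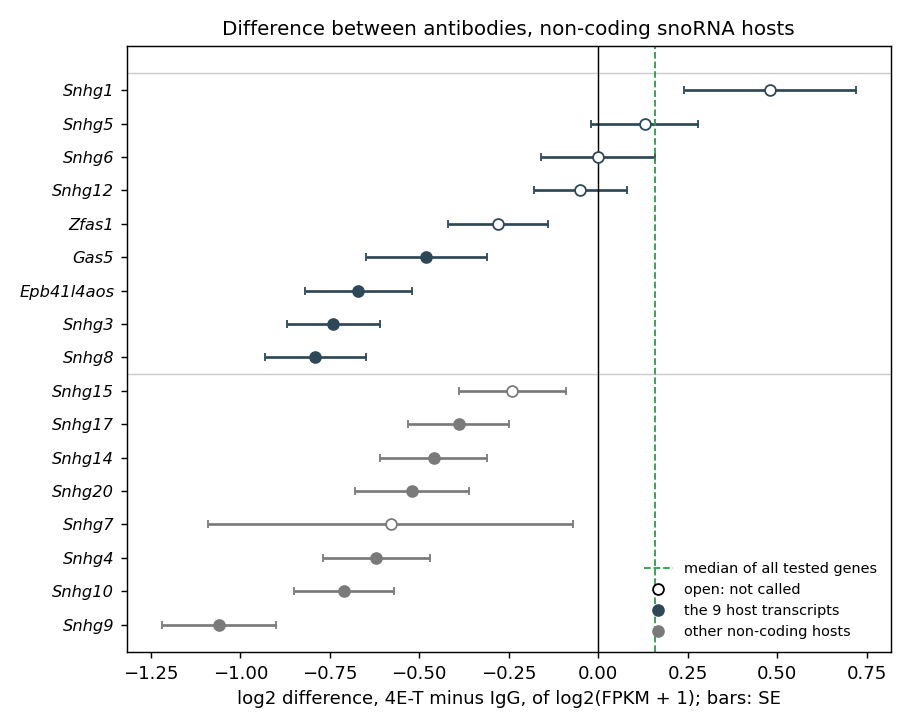
Log2 difference, 4E-T minus IgG, of log2(FPKM + 1) for the 9 host transcripts (dark) and 8 other non-coding hosts (grey), with SE bars, filled points for called genes and a dashed line at the median of all tested genes, 0.16. Filled points run from -1.06 for Snhg9 to -0.39 for Snhg17, and no called gene lies to the right of 0.

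The median tested gene was itself 0.16 higher with 4E-T on the log2 scale. Relative to it, Snhg8 was at -0.95, Snhg3 at -0.90, Epb41l4aos at -0.83, Gas5 at -0.64 and Zfas1 at -0.44, while Snhg5 was at -0.02. With median ratio scaling, which removes that shift, 5 of the 9 were called lower (the 4 and Zfas1) and 0 higher, beside 23.6% of all tested genes called lower and 22.8% higher. The hosts are short: their median exon length was 933 bp, and that of all tested genes was 3180 bp. After a correction for exon length, Snhg3 (-0.58), Snhg8 (-0.70), Zfas1 (-0.40) and Epb41l4aos (-0.44) were called lower and Gas5 (-0.61, limma adjusted p = 0.068) was not, where 22.0% of all tested genes were called lower and 25% higher in that fit.

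The 4E-T libraries differed from each other in the level of the hosts. For 8 of the 9 the second 4E-T library was above the first, by 1.84-fold for Snhg1, 1.52-fold for Snhg6, 1.51-fold for Gas5, 1.33-fold for Snhg5 and between 1.08-fold and 1.23-fold for Snhg3, Snhg12, Zfas1 and Snhg8. Epb41l4aos went the other way, at 0.67 of its level in the first library. Of all 12585 tested genes, 4202 were higher in the second 4E-T library than in the first. The median log2 shift from the first to the second 4E-T library was 0.23 over the 9 hosts and -0.08 over all tested genes. Other genes named as non-coding snoRNA hosts shifted by a median of 0.47 (7 of 8 higher in the second library) and nuclear long non-coding RNAs by 0.28 (7 of 8). Ribosomal protein mRNAs shifted by a median of -0.32, and 1 of 76 was higher in the second library. Between the IgG libraries the medians were 0.17 for the hosts, -0.07 for all genes and 0.14 for ribosomal protein genes. These shifts are between single libraries and were not tested.

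**Figure D3:**
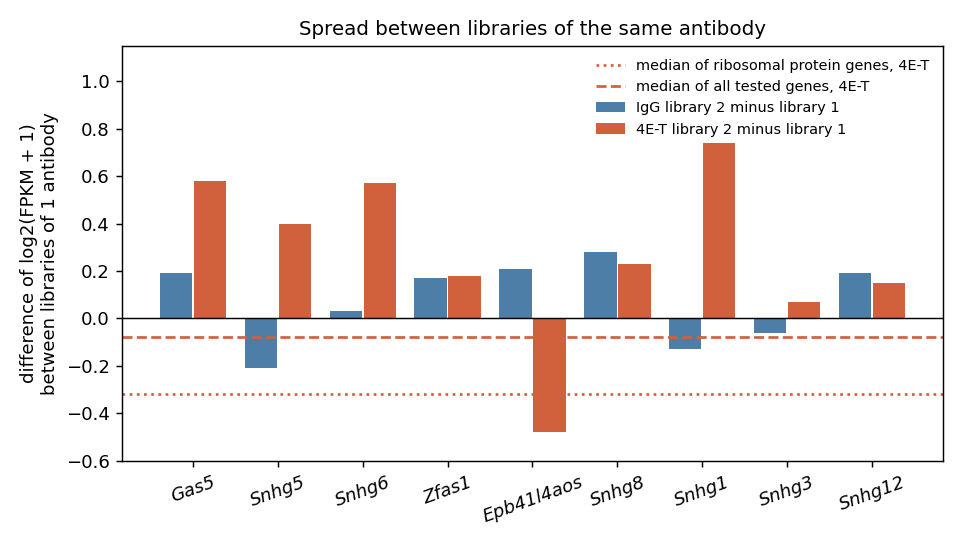
Difference of log2(FPKM + 1) between the libraries of 1 antibody, second minus first, for each host (blue, IgG; orange, 4E-T), with the median 4E-T shift of ribosomal protein genes (dotted, -0.32) and of all tested genes (dashed, -0.08). Every orange bar except that of Epb41l4aos is above 0, and the highest are those of Snhg1 (0.74), Gas5 (0.58) and Snhg6 (0.57).

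Several hosts share a locus with a protein-coding gene, and the tested neighbours reported here were higher with 4E-T. Among genes that RefSeq places over a host or within 2000 bp of one, 8 are reported here. The 4 of them that were expressed enough to test were all called higher with 4E-T, where 34.3% of all tested genes were. Znfx1 (chromosome 2, 167035790 to 167063015), whose start overlaps that of Zfas1 by 82 bp on the other strand, was higher by 1.04 ± 0.13 on the log2 scale (SE, n = 2 per antibody; limma adjusted p = 4.75e-07). Slc3a2 (chromosome 19, 8706882 to 8723369), the heavy chain of amino acid transporters and 117 bp from Snhg1 on the other strand, was higher by 0.84 ± 0.21 (limma adjusted p = 0.00473).

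Trnau1ap, a gene for a protein that binds selenocysteine tRNA and 738 bp from Snhg12, was higher by 0.52 ± 0.14 (limma adjusted p = 0.00283), and Epb41l4a, 337 bp from Epb41l4aos, by 0.52 ± 0.15 (limma adjusted p = 0.00492). Leaving out 1 library ended 3 of these 4 calls. The Slc3a2 call ended on omitting the second IgG library (limma adjusted p = 0.112) and the Trnau1ap call on omitting the first (limma adjusted p = 0.0601). That of Epb41l4a ended on omitting the second IgG library (limma adjusted p = 0.12) or the first 4E-T library (limma adjusted p = 0.0932). The neighbours Zbtb37, Mcmdc2, Prss12 and the pseudogene Gm9369 were below the minimum for testing, between 0.0699 and 0.749 FPKM.

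The difference of log2(FPKM + 1) between host and neighbour within a library, host minus neighbour, had a lower mean with 4E-T in all 4 pairs. For Zfas1 and Znfx1 it was 0.72 and 0.97 with IgG against -0.63 and -0.31 with 4E-T. The gene of the pair with the higher FPKM thus changed. For Epb41l4aos and Epb41l4a it was -2.07 and -1.73 with IgG against -3.01 and -3.16 with 4E-T.

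Trnau1ap exceeded Snhg12 in every library, with a difference of -2.61 and -2.54 with IgG against -3.21 and -3.06 with 4E-T. The groups of these differences did not overlap in 3 of the 4 pairs, and those of Snhg1 and Slc3a2 did overlap (-4.92 and -4.78 with IgG, -5.95 and -4.49 with 4E-T). An exact permutation test of 2 against 2 libraries, two-sided, cannot give a p below 0.333, which is the value for each of those 3 pairs. How often such differences separate among other gene pairs was not examined, so the count of 3 has no share to stand beside. All 4 neighbours were called higher, and a higher neighbour by itself lowers this difference. The cDNA method does not mark strand, so reads where genes overlap cannot be assigned by strand. Mcmdc2 overlaps Snhg6 by 1582 bp.

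**Figure D4:**
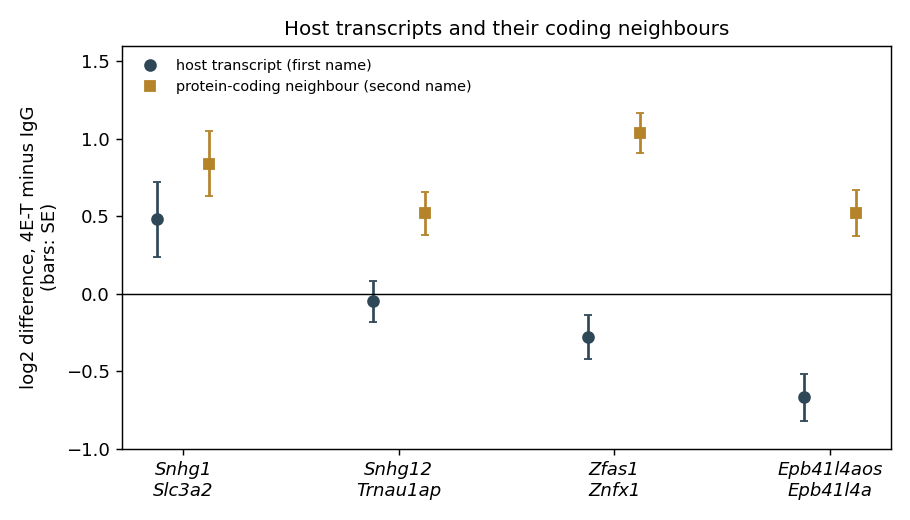
Log2 difference, 4E-T minus IgG, with SE bars, for 4 hosts (circles) and the protein-coding gene that overlaps or lies within 2000 bp of each (squares). Every square is above 0, from 0.52 to 1.04, and each circle lies below its square.

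The hosts also differ in how much of the gene was counted as exon. Merged exons covered 98.9% of the RefSeq span of Snhg8 and 96.1% of that of Snhg1. They covered between 33.1% and 39.8% in Snhg3, Snhg6, Epb41l4aos and Snhg12, and between 64.9% and 78.6% in Gas5, Snhg5 and Zfas1. The exon lengths and the spans come from different annotations, and where the counted exons lie relative to introns and snoRNA genes was not tested. If the counted exons of Snhg8 (776 bp) all lie in its RefSeq span (785 bp), they include sequence of Snora24 (130 bp). The same holds for Snhg1, with 2728 bp of exon, a span of 2840 bp and 8 snoRNA genes of 65 to 126 bp. The levels of both hosts may therefore include snoRNA sequence. RefSeq places between 1 and 8 snoRNA genes inside each host, and none of these was matched by symbol to a gene of the table, so no snoRNA level is given here.

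A list of 13 other non-coding genes named as snoRNA hosts was also read. Of these 8 were tested, and 6 were lower and 0 higher with 4E-T, beside 15.2% and 34.3% of all tested genes, with a median log2 difference of -0.55. RefSeq places a snoRNA gene inside 6 of the 8, of which 4 were lower, and none inside Snhg10 and Snhg20, both lower. Snhg9, host of Snora78, was lowest, with 3.40 and 4.26 FPKM with IgG and 1.75 and 0.93 FPKM with 4E-T (log2 difference -1.06 ± 0.16, SE; limma adjusted p = 3.4e-05). It rested on 57 and 69 reads with IgG and on 24 and 12 reads with 4E-T. Snhg9 and Snhg14 (0.723 and 1.53 FPKM with 4E-T) each had a 4E-T library under 1 FPKM. Each therefore needed at least 1 IgG library to pass the filter, which favours a lower call. Snhg10, a host by name, had 2.69 and 3.56 FPKM with IgG and 1.37 and 1.64 FPKM with 4E-T (-0.71 ± 0.14; limma adjusted p = 9.49e-05). How many of the 8 were called lower depended strongly on which library was left out. Of 8 nuclear long non-coding RNAs tested, Jpx and Neat1, the scaffold of paraspeckles, passed the filter through the IgG libraries alone, which already sets their direction. Of the other 6, 5 were called lower. Xist, the RNA of X inactivation, was at -1.14 ± 0.14 (SE), at -1.78 with a pseudocount of 0.1 and at -1.91 with limma-voom on recovered reads. Its 4E-T libraries were at 0.596 and 1.11 FPKM. Xist, too, thus needed at least 1 IgG library to pass the filter, which favours a lower call.

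Protein-coding genes that also carry snoRNAs were divided. Of 47, all tested, 10 were higher and 12 lower, with a median of -0.08. That is 21.3% and 25.5%, beside 34.3% and 15.2% of all tested genes. Many of the 47 are ribosomal protein genes that are counted again below, so the lists are not separate. The splicing factor gene Sf3b3 (1.06 ± 0.16, SE) and the ribosome assembly gene Ppan (0.84 ± 0.14) were higher. The ribosomal protein genes Rps12 (-1.08 ± 0.14) and Rpl23a (-0.85 ± 0.17) were lower. With median ratio scaling 6 were higher and 21 lower, beside 22.8% and 23.6% of all tested genes.

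Ribosomal protein mRNAs, the best-known TOP transcripts, included 29 lower and 1 higher call among 76. These shares, 38.2% and 1.32%, stood beside 15.2% and 34.3% of all tested genes. The median of the 76 was -0.28 and equalled that of the 9 hosts. Rps15a (-1.02 ± 0.15, SE) was among the lowest. The count of lower calls depended strongly on which library was left out, and the count over all tested genes also moved. Of 21 further mRNAs on a list of TOP and translation genes, 1 was higher and 3 lower (median -0.07), which for lower calls is 14.3%, near the 15.2% of all tested genes. The lower calls were 7 with median ratio scaling, 9 with quantile normalisation and 6 with the length correction. Over all tested genes the lower calls were 23.6% with median ratio scaling and 22.0% with the length correction. They were 2827 of 12585 with quantile normalisation. The filament gene Vim (0.71 ± 0.18) was higher, and Npm1, a nucleolar chaperone gene (-0.88 ± 0.16), was lower.

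Among 18 genes for proteins that bind or assemble snoRNAs, 5 were higher and 3 lower (median 0.15), or 27.8% and 16.7% beside 34.3% and 15.2% of all tested genes. The counts were 3 higher and 6 lower under both median ratio scaling and quantile normalisation. Median ratio scaling called 22.8% of all tested genes higher and 23.6% lower. With quantile normalisation, 3157 of the 12585 tested genes were higher and 2827 lower. The assembly factor genes Rpap3 (0.79 ± 0.15, SE) and Ruvbl1 (0.78 ± 0.15) were higher, and Nop58, a core C/D protein gene (-0.60 ± 0.14), and Naf1, an H/ACA assembly factor gene (-0.45 ± 0.13), were lower. Among 15 genes of nonsense-mediated decay and the exon junction, 5 were higher and 4 lower (median 0.05), or 33.3% and 26.7%. The lower calls were 7 with the length correction and 2 on omitting the second IgG library. The length correction called 22.0% of all tested genes lower. Eif4a3, the exon junction helicase gene (0.91 ± 0.16), and Smg8 (0.87 ± 0.17) were higher, and Magoh (-0.62 ± 0.16) was lower.

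The genes closest to Gas5 were sought by Euclidean distance of log2(FPKM + 1), centred per gene over the 4 libraries, among genes with a mean of at least 20 FPKM. They were Pura (distance 0.10), Amotl1 (0.13), Pabpn1 (0.13), Ccng2 (0.18) and Purb (0.22). Pura had 28.2 and 35.1 FPKM with IgG and 17.6 and 25.8 FPKM with 4E-T, with the same lower first 4E-T library as Gas5. The genes closest to the mean profile of the 9 hosts were Gnaq and Csnk2a1 (both 0.07), Pnn (0.08), Snhg15 and Kctd17 (both 0.10). Snhg15 is itself a non-coding snoRNA host, with 34.0 and 36.3 FPKM with IgG and 25.6 and 34.2 FPKM with 4E-T. With 4 libraries, many genes can lie this close.

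**Figure D5:**
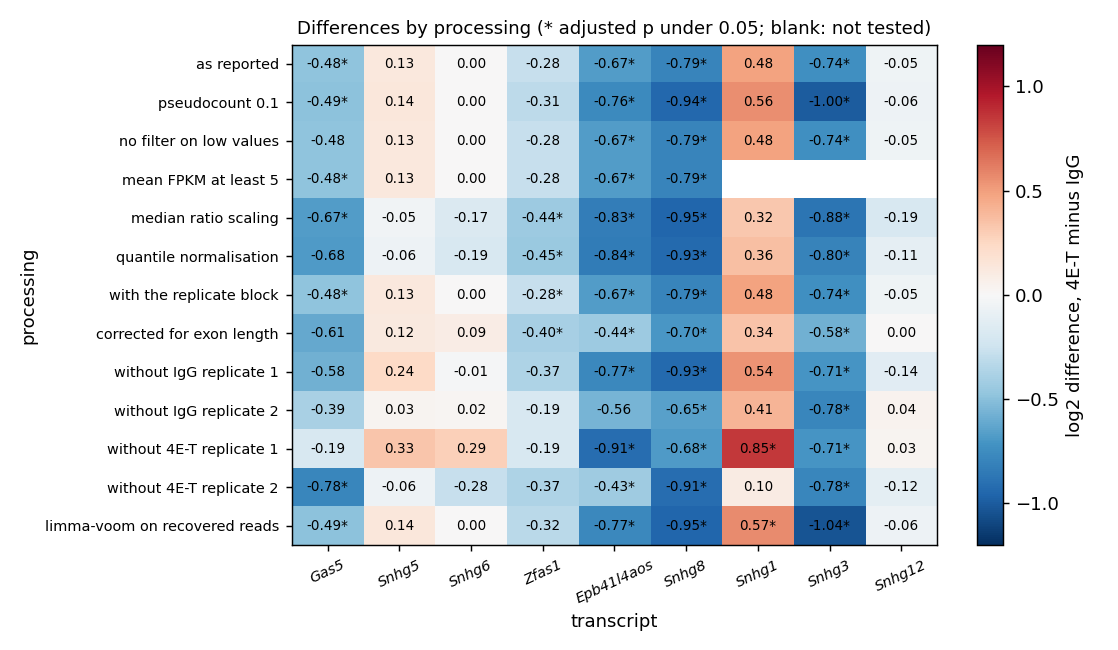
Log2 difference, 4E-T minus IgG, of each host (columns) as reported and under each alternative (rows), with an asterisk where the limma adjusted p is under 0.05 and blanks where a host was not tested. Snhg3 and Snhg8 carry an asterisk wherever they were tested, and Gas5 runs from -0.78 to -0.19.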

How the data were processed

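RNA from 2 IgG and 2 4E-T immunoprecipitates was compared. The labels' protocols name the MAGNA RIP kit for isolation, SMART-Seq v4 for cDNA and Nextera XT for libraries. According to the submitters' processing notes, the build was mm10 and the tools included STAR 2.6.0c, HTSeq 0.6.1p2 and DESeq2 1.26.0, with trimming by Trim Galore 0.5.0 and read checks by FastQC 0.11.5. The values deposited for each gene in each library are FPKM, as the column names state. A further deposited column, baseMean, is a signal averaged over all libraries. The table also holds log2 fold changes and p-values deposited from the authors' own comparison. FPKM and baseMean together gave whole reads for 100% of 86952 values (tolerance 0.01 read). Exon length in bp was scaled on 12 mitochondrial genes.

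The comparison used limma 3.58.1 in R 4.3.3 on log2(FPKM + 1), with trend and robust options and antibody as the only term. It covered 12585 genes that reached an FPKM of 1 in 2 or more libraries, with 2 residual and 27 prior degrees of freedom. Benjamini-Hochberg adjustment ran over all of them, with a threshold of 0.05. Differences on this scale understate the change of low genes. Folds were taken from them. Folds between libraries, and 4E-T means given as a part of IgG means, are ratios of FPKM. The scripts were tested on simulated data. Libraries of the same antibody were not duplicates of each other (chi-square per degree of freedom 31.1 for IgG and 40.5 for 4E-T). Coordinates are RefSeq's on GRCm38.p6, matched by symbol, and 7 of the 9 hosts had a start sequence printed.

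The members, the related lists and the tests were chosen with earlier results of these data known. Named were all 9 hosts, listed genes within 2000 bp of them, up to 2 called genes per direction and list, and the 5 genes closest to Gas5 and to the hosts' mean profile. Some genes that met these rules are not reported here, and neighbour counts leave them out. Alternatives changed the pseudocount, the filter, the scaling, the exon length term, the replicate block or the libraries included. limma-voom on recovered reads was added after seeing the data.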

Additional observations from a re-analysis of the deposited data

How the results depend on the processing

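With a pseudocount of 0.1 no call among the 9 hosts changed. Their lower count was 4 as reported, 2 to 4 with a library left out and 5 with median ratio scaling, and Snhg3 and Snhg8 were called lower wherever they were tested. With a mean FPKM of at least 5, Snhg1, Snhg3 and Snhg12 were not tested. A higher call for Snhg1 was added without 4E-T library 1 and with limma-voom on recovered reads (1 host called higher in each, 0 to 1 over the left-out libraries). Gas5 also lost its call with no filter (limma adjusted p = 0.0992) and with quantile normalisation (0.0929). Signs turned for Snhg5 with median ratio scaling (-0.0454), with quantile normalisation (-0.06) and without 4E-T library 2 (-0.06). They turned for Snhg6 with median ratio scaling (-0.17), with quantile normalisation (-0.19), without IgG library 1 (-0.011) and without 4E-T library 2 (-0.28). They turned for Snhg12 after the length correction (0.00269), without IgG library 2 (0.045) and without 4E-T library 1 (0.0296). With a library left out, the highest value was 0.33 for Snhg5 and 0.29 for Snhg6, and the lowest was -0.14 for Snhg12. The causes were not tested.

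Over all genes, 4318 were higher and 1912 lower as reported, and 2870 and 2969 with median ratio scaling. With no filter, 3669 of 21738 genes were higher and 2690 lower. With a mean FPKM of at least 5, 3658 were higher and 1333 lower. With a library left out there were 2389 to 4259 higher and 1101 to 1755 lower. The other non-coding hosts had 6 lower calls as reported, 3 with no filter, 1 with a mean FPKM of at least 5, and 2 to 8 with a library left out. Ribosomal protein genes had 29 lower calls as reported, 18 with no filter, 54 with median ratio scaling, 58 with quantile normalisation, and 7 to 45 with a library left out. Of the other non-coding hosts, only Snhg15 and Snhg17 were tested with a mean FPKM of at least 5. With the replicate block, lower calls were 5 for the TOP and translation list and 5 for the snoRNA protein list, against 3 in each as reported. Protein-coding snoRNA hosts had 4 to 16 lower and 3 to 11 higher calls with a library left out. The calls of Vim (limma adjusted p = 0.0694), Naf1 (0.133) and Magoh (0.0754) ended, among others, on omitting the second IgG library.

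Libraries of both antibodies carry the experiment numbers 1 and 2, and the labels do not say what a shared number means. The deviations of same-numbered libraries from their group means had a correlation of 0.064 across genes. With the experiment number as a replicate block, 4745 genes were higher and 2099 lower, 5 hosts were lower and 0 higher, and Zfas1 was the host added (-0.28, limma adjusted p = 0.0468). Reads per library ran from 74 for Snhg3 to 15945 for Gas5, so counting error weighs most on Snhg3.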
